A study of Mus musculus with 18 samples.

Results

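The transcripts described here are those of 50 genes of DNA replication and the G1/S step, chosen by function, with earlier results of these data known. They are 50 of the 23329 genes counted, and all 50 were tested. The fewest reads that any of them had in a library were 72, and the most were 25460. They were measured by RNA sequencing in FDH cells, immortalised mouse fetal liver cells from BALB/c embryos at E14.5 (days of embryonic development), with the background bc-/- bIL-3-/-. These mice lack the beta chain (bc) of the interleukin-3 (IL-3) receptor, and the cells were transduced with bc together with its alpha chain, either wild-type IL3Ra or IL3Ra with the change P248L. The study followed both lines into IL-3.

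Untreated cells grew in stem cell factor (SCF, 100 ng/ml) with doxycycline. Treated cells were washed and moved to 100 ng/ml IL-3 for 2 or 5 days, in a medium for which neither SCF nor doxycycline is listed. The labels do not say outright that both were left out. The gain of IL-3 and any loss of SCF or doxycycline cannot be told apart in a day 2 or day 5 value. Each of the 6 groups (wild-type or P248L line, untreated, day 2 or day 5) had 3 libraries. All cells were at passages 10 to 12. How many lines or clones carried each receptor is not stated, so the cells with each receptor are called a line here, and receptor and line cannot be told apart. The labels do not say whether the libraries came from separate cultures, so p-values measure only the spread between these libraries, which may be technical. The cells are bulk populations, in which fewer cells of a kind and less RNA per cell cannot be told apart.

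Replication starts at origins that are marked by the origin recognition complex, Orc1 to Orc6. In G1, Cdc6 and Cdt1 join it and load rings of Mcm2 to Mcm7, the replicative helicase. In S phase, Cdc45 and the GINS proteins turn each ring into an active helicase, polymerase alpha and primase lay down primers, and the polymerases epsilon and delta extend them on the clamp Pcna, which the Rfc complex loads. Cyclin E, encoded by Ccne1 and Ccne2, drives entry into S phase with its kinase. E2f1 is an activator of many of these genes, which the retinoblastoma proteins hold off in resting cells. In blood cell formation, progenitors divide often, and granulocytes and macrophages leave the cell cycle as they mature.

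Promoters of several members carry short words that E2F factors are known to bind, and 6 stretches upstream of the start are shown because these licensing and helicase genes span the day 5 response described further on, from the largest fall (Mcm7) past the middle (Orc1) to a small one (Orc3). The words searched were TTTCCCGC, TTTGGCGC, TTTCGCGC and TTTGCCGC, on both strands, in the 300 bases from 250 before to 50 after the start in RefSeq (GRCm38.p6). The words are in capitals, overlapping words run together, and the gene's own strand is printed 5′ to 3′.
Mcm7 (chr5:138172004-138172063, minus strand): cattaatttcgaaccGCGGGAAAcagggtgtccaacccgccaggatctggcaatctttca
Mcm6 (chr1:128359731-128359830, minus strand): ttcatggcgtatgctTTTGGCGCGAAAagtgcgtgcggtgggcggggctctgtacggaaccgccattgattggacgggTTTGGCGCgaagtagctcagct
Mcm5 (chr8:75109339-75109398, plus strand): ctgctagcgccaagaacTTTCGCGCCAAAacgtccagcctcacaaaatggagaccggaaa
Cdc6 (chr11:98907991-98908050, plus strand): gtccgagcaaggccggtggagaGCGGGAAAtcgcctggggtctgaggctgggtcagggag
Orc1 (chr4:108579394-108579453, plus strand): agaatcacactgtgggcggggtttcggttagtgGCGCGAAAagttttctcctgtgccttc
Orc3 (chr4:34614953-34615012, minus strand): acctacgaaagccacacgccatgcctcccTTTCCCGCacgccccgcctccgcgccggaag
Mcm6 holds 3 words in its stretch, Mcm5 holds 2, and the other 4 genes hold 1 each. The searched promoter of Mcm7 also holds TTTCGCGC after the start, outside the printed stretch. Promoters were found for 42 of the 50 members, and 15 of the 42 (35.7%) held at least 1 of these words. Of all 27025 genes with a promoter, 704 (2.6%) did, and of the 8580 tested genes with a promoter 418 (4.87%). A gene with several promoters was counted once, if any of them held a word. The word CCAAT, bound by NF-Y, was in 59.5% of member promoters, 41.1% of all and 43.4% of those of tested genes. TTTGAA, a word of G2/M promoters, was in 11.9% of member promoters (5 of 42) and 20.2% of all. Of the 8580 tested genes with a promoter, 1240 held TTTGAA, a share closer to that of the members than the share of all genes was. A match is a description of letters, not a bound site.

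Reads assigned to genes numbered 13.8 to 27.2 (in 1e6) per library. Between 27.9% and 38.1% of reads fell in no single gene. Levels below are counts per 1e6 reads in genes (CPM) after TMM scaling, and tests are edgeR quasi-likelihood tests over 11942 genes with a Benjamini-Hochberg adjusted p under 0.05 called a change. Reads of Cdc6, Mcm7, Pcna, Rfc5, Rrm2 and Slbp may be shared with processed pseudogenes at least 95% alike over 300 bases or more. Their levels are uncertain to that extent. The same limit holds for Tyms, which matches transcripts of other genes elsewhere, such as Jakmip2 (97.5% over 360 bases) and Reep3 (97.7% over 355 bases). Another 9 overlaps, of Ccne2, Chaf1a, Fen1, Gins2, Orc2, Orc4, Rfc2, Rfc5 and Slbp, are with genes on the other strand, on which 1.05% to 2.98% of members' reads lay. Values in 3 libraries are in the order of replicates 1 to 3. P248L libraries were more spread than wild-type ones. The median coefficient of variation of the 50 members was 6.14%, 6.13% and 6.40% in the wild-type groups (untreated, day 2, day 5) against 13.2%, 13.9% and 9.02% in the P248L groups. Members deviated from their group mean by -0.82 to 0.55 (log2) in P248L day 2 library 3, by -0.43 to 0.73 in P248L day 2 library 1 and by -0.66 to 0.5 in P248L untreated library 1, while deviations in the wild-type libraries lay between -0.31 and 0.32. P248L untreated library 1 and P248L day 2 library 3 were left out together as an alternative, and the counts that moved are given below.

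In untreated wild-type cells, levels per kilobase of exon differed widely among members. Pcna stood highest at 193 CPM per kb, followed by the single-strand binding subunit Rpa3 (139), Mcm6 (135) and the ribonucleotide reductase subunit Rrm1 (134). The helicase subunits Mcm2 to Mcm7 lay between 76.3 and 135 CPM per kb. The lowest were the GINS subunit Gins2 (9.38) and E2f1 (10.4). The 50 members together made up 7029 to 7507 CPM in untreated wild-type libraries, 6108 to 6485 at day 2 and 1602 to 1699.5 at day 5. In the P248L line the sums were 7742 to 8173, 7895 to 8430 and 2356 to 2718 CPM. The sum thus fell late in both lines, and at day 2 only the wild-type ranges were separate from the untreated ones.

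**Figure D1:**
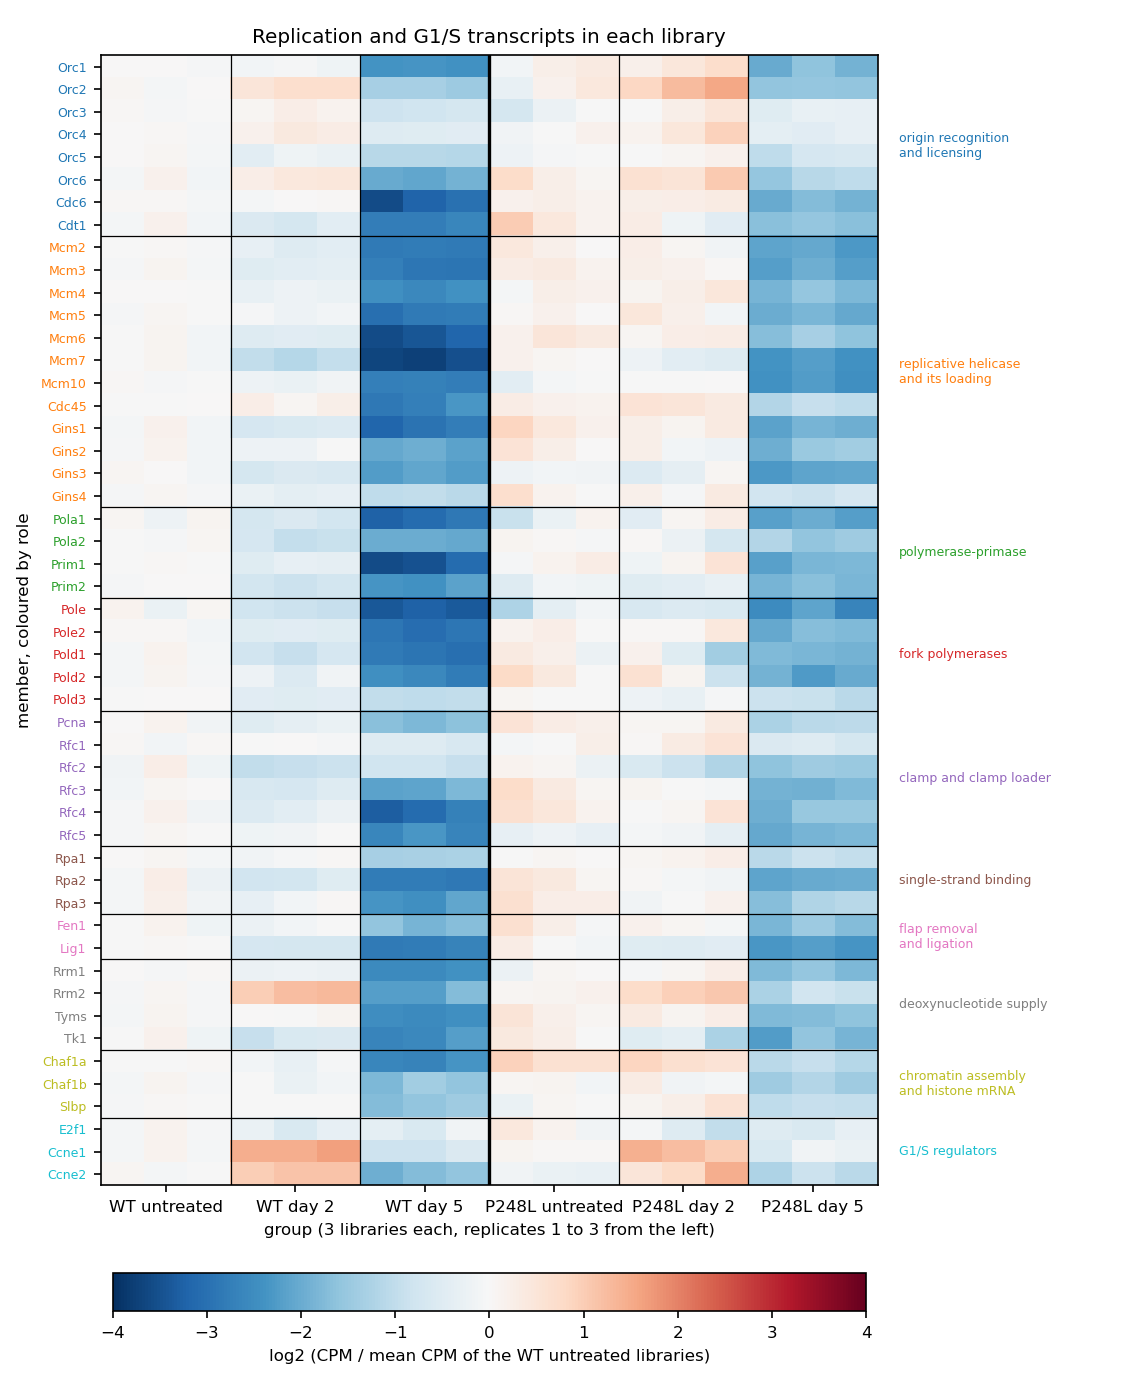
Level of each of the 50 members (rows, coloured by role) in each of the 18 libraries (columns), as log2 of its CPM over the mean CPM of the untreated wild-type libraries. The 3 day 5 columns of both lines are blue for nearly every member, darker in the wild-type line, while Rrm2, Ccne1, Ccne2 and Orc2 are red at day 2.

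After 2 days in IL-3, 20 of the 50 members fell in the wild-type line, all but Mcm7 by less than 2-fold, while cyclin E rose and 26 members did not pass. The count was 4 up and 20 down, where 22.1% of all tested genes rose and 21.8% fell (43.9% either way). The median log2 fold change was -0.29 over the members and 0.00 over all tested genes. The 4 that rose were Ccne1, Ccne2, Rrm2 (the regulated subunit of ribonucleotide reductase) and Orc2. Ccne1 stood at 23.7, 27.2 and 23.7 CPM in untreated wild-type libraries and at 68.1, 67.5 and 76.8 CPM at day 2. These libraries did not overlap, and the log2 fold change was 1.51 ± 0.14 (SE, adjusted p = 1.2e-07, edgeR). Ccne2 went from 58.1, 51.1 and 54.3 to 109, 121 and 120.1 CPM, a log2 fold change of 1.1 ± 0.18 (adjusted p = 0.0001). Ribonucleotide reductase makes deoxynucleotides from ribonucleotides, and its Rrm2 subunit is the one made in S phase. Rrm2 went from 227, 247 and 228 to 464, 548 and 577 CPM (1.18 ± 0.15, adjusted p = 5.8e-06). Its partner Rrm1 stood at 539.5, 519 and 549 CPM untreated and 459, 463 and 460.3 CPM at day 2 and did not pass (adjusted p = 0.14). The 2 subunits of 1 enzyme were thus called differently at day 2, although the difference between them was not tested.

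The falls at day 2 in the wild-type line were spread over the fork. Of the 12 helicase genes, 6 fell (Mcm2, Mcm3, Mcm6, Mcm7, Gins1, Gins3), as did 3 of the 4 genes of polymerase alpha and primase (Pola1, Pola2, Prim2) and 4 of the 5 fork polymerase genes (Pole, Pole2, Pold1, Pold3). Mcm7 fell most, from 375, 413 and 358 CPM to 193, 174 and 199 CPM (-1.02 ± 0.12, adjusted p = 1.5e-06). Every day 2 library lay below every untreated one. The other falls with the smallest adjusted p were Prim2, the large primase subunit (-0.78, adjusted p = 4.6e-05), and Lig1, the ligase that joins Okazaki fragments (-0.68, adjusted p = 5.1e-05). The remaining falls were in Cdt1, Pcna, Rfc2, Rfc3, Rpa2 and Tk1, between -0.93 and -0.36 on the log2 scale. Calls of Cdt1, Mcm2, Pola1, Pold1, Pcna and Tk1 were lost when some single library of the groups compared was left out, with adjusted p up to 0.12. The 26 members that did not pass included 6 of the 8 licensing genes, among them Cdc6 (adjusted p = 0.97), and all 3 genes of chromatin assembly and histone mRNA (Chaf1a, Chaf1b, Slbp).

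In the P248L line at day 2, 7 members rose and 8 fell, against 18.5% and 21.5% of all tested genes (40.0% either way), and the members' median was -0.06 against -0.01. Ccne1, Ccne2, Rrm2 and Orc2 rose here too. Ccne1 went from 27.1, 25.5 and 25.6 to 67.3, 58.4 and 49.5 CPM, a log2 fold change of 1.17 ± 0.14 (adjusted p = 5.2e-06). Orc2, a core subunit of the origin recognition complex, went from 105, 144 and 174 to 228, 308 and 379 CPM (1.11 ± 0.17, adjusted p = 7e-05). Ccne2 went from 49.7, 45.4 and 43.9 to 76.5, 93.3 and 149 CPM (1.2 ± 0.18, adjusted p = 7.1e-05). For each of these genes the untreated and day 2 libraries did not overlap, though the day 2 values of Orc2 and Ccne2 were widely spread. Orc3 (0.55), Orc4 (0.53) and the histone mRNA binding protein Slbp (0.38) also rose. Rfc2, a clamp loader subunit, fell with the smallest adjusted p, from 170.5, 163 and 132 to 101, 85 and 66.2 CPM (-0.88 ± 0.15, adjusted p = 0.0002). Lig1 (-0.56, adjusted p = 0.00053), Tk1 (thymidine kinase, -0.87, adjusted p = 0.0035), Cdt1, Mcm7, Rfc3, Rpa2 and E2f1 were the other falls. E2f1 stood at 44.2, 36.3 and 29.9 CPM untreated and 30.8, 22.7 and 16.5 CPM at day 2, so that the 2 groups of libraries overlapped (-0.65 ± 0.2, adjusted p = 0.015).

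The spread of the P248L libraries bears on these counts. In these 2 groups, libraries with the same replicate number deviated together over all genes (correlations of 0.46, 0.175 and 0.348), and with the number as a block in these groups alone 24 members were called, 11 higher and 13 lower. In a fit of only the libraries compared, without the block, 5 were called. With DESeq2 size factors the split was 9 higher and 6 lower and the members' median turned to 0.01, and with no scaling it was 5 and 12. Calls of Orc4, Cdt1, Rfc3, Rpa2, Slbp and E2f1 were lost without at least 1 single library, with P248L day 2 library 3 among them for each of the 6, and without P248L untreated library 1 and day 2 library 3 together the call of Orc3 was lost as well. Leaving out the same 2 libraries, neither of them wild-type, raised the calls in the wild-type line at day 2 from 24 to 34 (6 higher, 28 lower). Ccne1, Ccne2, Rrm2 and Orc2 were called in both lines under each of the settings tried at the same threshold. In the wild-type line upper-quartile factors gave 27 falls and no scaling 28, with 4 rises under both.

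**Figure D2:**
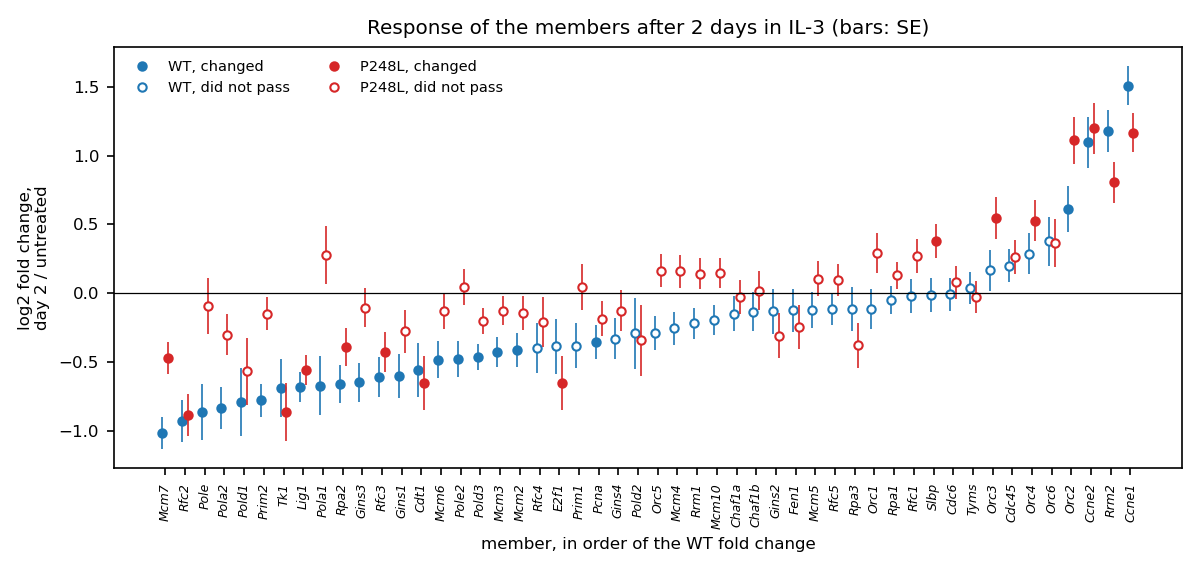
Fitted log2 fold change of each member after 2 days in IL-3 against untreated (y axis), members in order of the wild-type value (x axis), with the wild-type line in blue and the P248L line in red. Bars are SE, filled points passed the test, and Ccne1, Ccne2, Rrm2 and Orc2 at the right end lie above 0 in both lines.

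Whether the lines responded differently at day 2 was tested as an interaction. The fitted fold change was higher in the P248L line for 39 of 50 members, but 2 passed, both higher in P248L, against 3.05% of all tested genes higher and 6.50% lower (9.55% either way). They were Prim2 (difference 0.63 ± 0.17 log2, adjusted p = 0.024) and Mcm7 (0.55 ± 0.16, adjusted p = 0.042). Mcm7 stood at 435, 407 and 383 CPM in untreated P248L libraries and at 335, 284 and 265 CPM at day 2, a smaller drop than in the wild-type line. Prim2 stood at 83.4, 88.6 and 88.1 CPM untreated and 51.8, 47.9 and 52 CPM at day 2 in the wild-type line, and at 60.4, 80.4 and 77 and 61.4, 64.3 and 70.7 CPM in the P248L line. The count of 2 depended on single libraries. It was 0 without wild-type day 2 library 2 and 6 without P248L day 2 library 1. It was 1 without wild-type untreated library 1 or 3, wild-type day 2 library 1 or 3, wild-type day 5 library 1 or 2, P248L untreated library 2, P248L day 2 library 2 or P248L day 5 library 1 or 3. Fitted on only the libraries compared it was 0, with DESeq2 it was 7, and without P248L untreated library 1 and day 2 library 3 together it was 4. Of the 13 members that fell by call in the wild-type line alone, Prim2 is the one that passed this test, and the others are not shown to have responded differently there.

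By day 5 the whole set had fallen in both lines. In the wild-type line 49 of 50 members fell and none rose, where 37.4% of all tested genes fell and 35.7% rose (73.1% either way). The members' median log2 fold change was -2.43 against -0.05 over all tested genes. The median member kept 18.6% of its untreated level, 43 members fell over 2-fold and 32 fell over 4-fold. E2f1, the exception, stood at 30.8, 35.9 and 31.3 CPM untreated and 24.9, 21.3 and 29.7 CPM at day 5 (-0.37 ± 0.2, adjusted p = 0.1). In the P248L line 49 of 50 fell and none rose, against 36.2% and 34.8% of all tested genes (71.1% either way). The median was -1.84 against -0.02, the median member kept 27.8%, 40 fell over 2-fold and 17 over 4-fold. The exception there was Orc3 (77.8, 107 and 125 CPM untreated, 91.6, 102 and 100.2 CPM at day 5, -0.08 ± 0.15, adjusted p = 0.66). Other scalings moved the median of all genes in the wild-type line by 0.12 (DESeq2 size factors) and by -0.44 (no scaling), with the members' median at -2.31 and -2.87, so that the set lay far below all genes under each.

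The licensing genes split at day 5. Cdc6, which loads the helicase, fell in the wild-type line from 79.1, 79.5 and 72.6 CPM to 6.52, 8.30 and 9.66 CPM (-3.24 ± 0.13, adjusted p = 4e-13). In the P248L line it went from 87.2, 91.4 and 85.8 to 19.1, 23.2 and 21 CPM (-2.06 ± 0.13, adjusted p = 1.1e-10). Day 5 libraries lay well below untreated ones in both lines, and the P248L values at day 5 all lay above the wild-type values. Its partner Cdt1 fell from 102, 121 and 100.5 to 15.8, 16 and 17.6 CPM in the wild-type line and from 220.1, 146 and 118 to 33.8, 37.2 and 33.8 CPM in the P248L line. Orc1, the largest subunit of the complex, fell from 42, 41.4 and 40.0 to 7.80, 7.96 and 7.76 CPM in the wild-type line and from 38.1, 48.3 and 53 to 10.2, 13.5 and 11.1 CPM in the P248L line. Orc6 changed by -2.0 in the wild-type line and -1.59 in the P248L line. The other subunits fell less than Orc1 in both lines, with Orc2 at -1.38 and -1.7, Orc5 at -1.13 and -0.69, Orc4 at -0.47 and -0.4, and Orc3 at -0.77 in the wild-type line. Orc4 was called in both lines but lost its call in the wild-type line with DESeq2 size factors (adjusted p = 0.052), and in the P248L line with DESeq2, without strand, or without untreated library 3 or day 5 library 1 or 2 (adjusted p up to 0.097).

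All 12 helicase genes fell in both lines. Mcm7 was lowest against untreated in the wild-type line, at 29.9, 28.9 and 33.3 CPM after 375, 413 and 358 CPM, or 8.03% (-3.64 ± 0.13, adjusted p = 5.9e-14). Mcm6 fell from 586, 637 and 555 to 49.9, 54.9 and 65.7 CPM in the wild-type line (-3.38 ± 0.14) and from 667, 835 and 753 to 181, 237 and 195 CPM in the P248L line (-1.88 ± 0.14). The remaining ring subunits Mcm2 to Mcm5 fell by 7.36-fold (Mcm5), 7.17-fold (Mcm3), 7.05-fold (Mcm2) and 5.57-fold (Mcm4) in the wild-type line. All 6 subunits of 1 ring thus fell, by 5.57 to 12.5-fold there and by 3.6 to 5.38-fold in the P248L line. Mcm3 went from 373, 411 and 366 to 57.4, 52.3 and 50.8 CPM in the wild-type line and from 476, 494 and 423 to 83.8, 99.6 and 83.5 CPM in the P248L line, with adjusted p of 3.2e-13 and 3.9e-12. Cdc45, which the helicase needs to open, went from 98, 98.5 and 101 to 13.6, 15 and 19.5 CPM in the wild-type line (-2.63 ± 0.13) and from 122, 112 and 109 to 44.4, 52.4 and 48.6 CPM in the P248L line (-1.24 ± 0.12). The GINS genes did not move as a block. Gins1 fell by 7.72-fold and 5.63-fold (17.8% left, the least of any member in the P248L line), while Gins4 fell by 2.04-fold and 2.1-fold in the wild-type and P248L lines.

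The genes that start and extend strands fell with the helicase. The primase subunit Prim1 changed by -3.36 ± 0.18 log2 in the wild-type line and -2.07 ± 0.17 in the P248L line. Pola1, the catalytic subunit of polymerase alpha, fell from 210.1, 174 and 212 to 20.9, 23.4 and 27.6 CPM and from 106, 166 and 220.1 to 44.2, 50.1 and 42.9 CPM. Pole, the catalytic subunit of the leading strand polymerase, fell from 157, 117 and 151 to 13.6, 15.2 and 13.8 CPM and from 60.4, 108 and 133 to 24.6, 32.7 and 22.8 CPM. These P248L untreated libraries were uneven, with library 1 lowest in both genes. Pold1, the catalytic subunit of polymerase delta, fell from 93.1, 108 and 94.2 to 14, 13.1 and 12 CPM and from 127, 113 and 84.2 to 29, 28 and 26.5 CPM, and its partner Pold3 fell by only 1.99-fold and 1.96-fold. Of the smallest adjusted p values at day 5, Lig1 had one in each line. Lig1 went from 210.1, 219 and 214 to 30.2, 30.6 and 33.6 CPM (adjusted p = 4e-13) and from 265, 212 and 201 to 42.5, 46.8 and 42.2 CPM (adjusted p = 4e-12). Fen1, the nuclease that trims the flap before Lig1 seals it, went from 146, 163 and 131 to 49.3, 40.4 and 45.3 CPM and from 231, 172 and 142 to 41.1, 53.5 and 44.3 CPM.

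The clamp and its loader fell less evenly. Pcna kept the highest level per kilobase of exon of all members at day 5, at 59.8 CPM per kb in the wild-type and 88.0 in the P248L line. It stood at 92.5, 85.1 and 94.6 CPM after 293, 321 and 264 CPM in the wild-type line (-1.69 ± 0.13) and 121, 139 and 142 after 426, 359 and 337 CPM in the P248L line (-1.49 ± 0.13). Among loader subunits in the wild-type line, Rfc4 fell by 8.01-fold, Rfc5 by 5.74-fold and Rfc3 by 4.04-fold, but Rfc2 by 1.78-fold and Rfc1, the large subunit, by 1.48-fold. Of the single-strand binding complex, Rpa2 fell from 94.6, 122 and 85.6 to 14.6, 14.6 and 13.8 CPM and from 145, 131 and 107 to 23.3, 25 and 25.5 CPM. Rpa3, its smallest subunit, fell from 87.9, 106 and 85.1 to 18, 17 and 22 CPM and from 144, 111 and 111 to 28.8, 40.1 and 42.9 CPM. The large subunit Rpa1 fell less in both lines, from 241, 254 and 228 to 95, 99 and 99.2 CPM (-1.3) and from 239, 257 and 245 to 113, 133 and 125 CPM (-0.99). Chaf1a, the large subunit of the chromatin assembly factor, fell from 115, 116 and 119.9 to 19.1, 18.3 and 22.9 CPM and from 222, 180.0 and 177 to 55.8, 62.1 and 53.2 CPM. Chaf1b (-1.59 and -1.37) and Slbp (-1.58 and -0.9) fell as well.

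Deoxynucleotide supply fell in both lines. Rrm2, up at day 2, was at 50.6, 50.4 and 70.1 CPM at day 5 in the wild-type line (-2.04 ± 0.16 against untreated) and at 96.5, 137 and 126 CPM in the P248L line (-1.08 ± 0.15). Rrm1 went from 539.5, 519 and 549 to 91.4, 91.9 and 101 CPM and from 458, 565 and 543 to 157, 182 and 155 CPM. Tyms, the thymidylate synthase, went from 81.8, 91.7 and 83.6 to 15.4, 14.7 and 15.6 CPM and from 122, 97.7 and 90.2 to 25.1, 25.7 and 28.2 CPM. Tk1, which salvages thymidine, changed by -2.47 and -2.09. Cyclin E was back below its untreated level. Ccne1 was at 14.1, 14 and 16.5 CPM in the wild-type line (-0.74, adjusted p = 0.00015) and 16.3, 22.6 and 20.6 CPM in the P248L line (-0.4, adjusted p = 0.018). The latter call was lost without P248L day 5 library 1 (adjusted p = 0.12) and in a fit of only the libraries compared. Ccne2 was at 14.2, 16.5 and 18.3 CPM and 23.2, 30.1 and 25.7 CPM (-1.74 and -0.82), and its call in the P248L line was lost with reads of both strands (adjusted p = 0.079). E2f1 in the P248L line was at 23, 21.6 and 25.9 CPM at day 5 (-0.65, adjusted p = 0.0073).

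**Figure D3:**
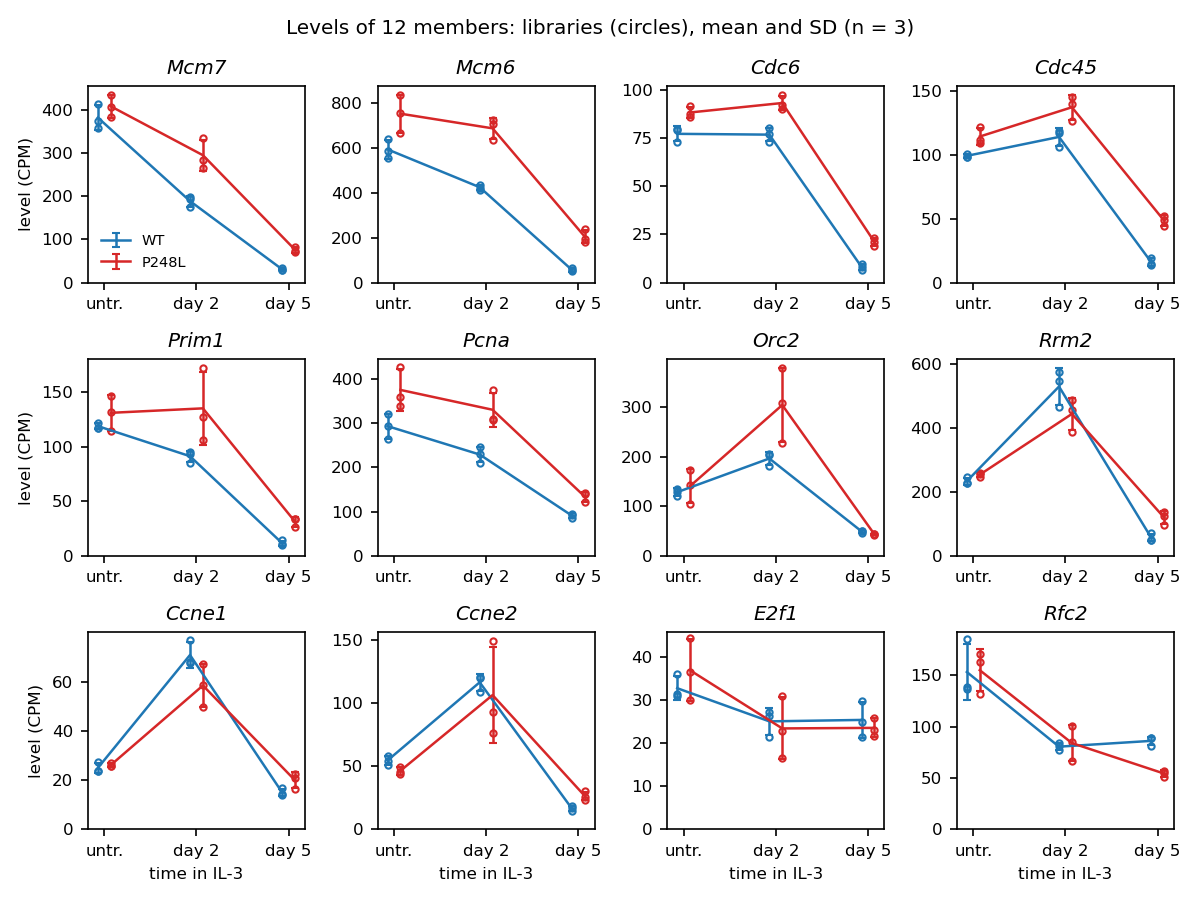
Level in CPM (y axis, from 0) of 12 members untreated and after 2 and 5 days in IL-3 (x axis, evenly spaced), in the wild-type line (blue) and the P248L line (red). Circles are libraries, and lines join means with SD (n = 3). Ccne1, Ccne2, Rrm2 and Orc2 peak at day 2, and at day 5 the P248L values of Mcm6, Cdc6, Cdc45 and Prim1 lie above the wild-type ones.

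**Figure D4:**
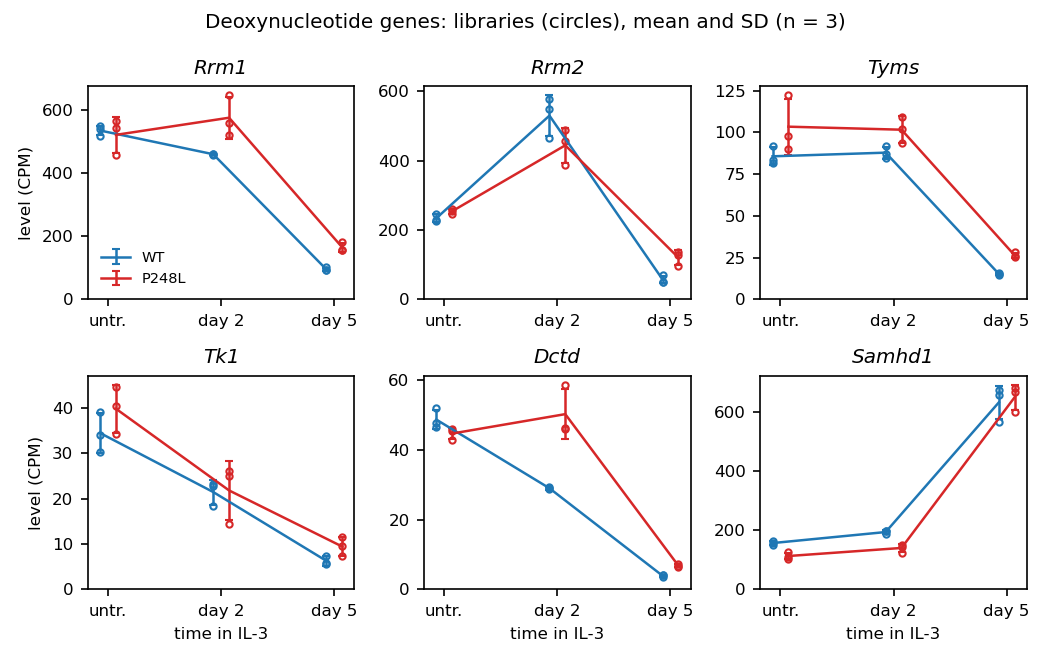
Level in CPM (y axis, from 0) of the members Rrm1, Rrm2, Tyms and Tk1 and of the deoxynucleotide genes Dctd and Samhd1, untreated and after 2 and 5 days in IL-3 (x axis, evenly spaced), by line. Circles are libraries and lines join means with SD (n = 3). Samhd1 is the one panel that is highest at day 5.

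Most of the fall came after day 2. From day 2 to day 5, 48 members fell in the wild-type line and 49 in the P248L line, and none rose, where 34.7% and 33.1% of all tested genes fell and 36.0% and 37.1% rose (70.7% and 70.2% either way). The members' medians were -2.20 and -1.78 against 0.02 and 0.06. The smallest adjusted p values were those of Cdc6 (-3.23, adjusted p = 8.6e-13), Mcm10 and Cdc45 in the wild-type line and of Mcm10 (-2.35, adjusted p = 7e-12), Mcm3 and Mcm2 in the P248L line. Mcm10 helps start the helicase. E2f1 did not pass in either line, nor did Rfc2 in the wild-type line (0.1, adjusted p = 0.57), where its day 2 and day 5 libraries lay at 76.9, 80.8 and 83.8 and 88.6, 88.5 and 81.3 CPM. Group means were highest at day 2 for 9 members in the wild-type line and for 23 in the P248L line, and lowest at day 5 for 48 and 49.

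The size of the day 5 fall differed between the lines for 23 of the 50 members by the interaction test. The response was higher, so the fall smaller, in the P248L line for 22 and lower for 1, where 14.7% of all tested genes were higher and 12.2% lower (26.9% either way). The median difference was 0.48 over the members and 0.04 over all tested genes, and 43 of 50 members lay above 0. The smallest adjusted p values were those of Mcm6 (1.5 ± 0.19, adjusted p = 1.2e-05), Cdc45 (1.39 ± 0.18, adjusted p = 1.5e-05) and Mcm7 (1.21 ± 0.17, adjusted p = 3.3e-05). In all 3 genes the P248L libraries at day 5 lay above all wild-type ones, with Mcm7 at 73, 83.4 and 71.4 CPM against 29.9, 28.9 and 33.3 CPM. Large differences were also found for Pole (1.41), Prim1 (1.29), Pola1 (1.21) and Cdc6 (1.17), so that the helicase, its loader and the strand-starting enzymes were all represented. Of the role groups, 7 of 12 helicase genes, 3 of 4 polymerase alpha and primase genes and 3 of 4 deoxynucleotide genes were higher, but none of the 3 Rpa genes and neither Fen1 nor Lig1. The remaining higher members were Mcm3, Mcm4, Mcm5, Mcm10, Orc3, Prim2, Pole2, Rfc4, Rfc5, Rrm1, Rrm2, Tyms, Chaf1a, Slbp and Ccne2.

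Rfc2 went the other way. It stood at 138, 185 and 136 CPM untreated and 88.6, 88.5 and 81.3 CPM at day 5 in the wild-type line, and at 170.5, 163 and 132 and 50.8, 56.8 and 55 CPM in the P248L line (difference -0.69 ± 0.21, adjusted p = 0.024). The end of Rfc2 overlaps Lat2, a gene on the other strand, over 954 bases of transcript. The difference for Rfc2 was lost without scaling and without wild-type untreated library 1 or 3, wild-type day 5 library 1 or 2, or P248L day 5 library 1 (adjusted p up to 0.14). Without P248L untreated library 1 and day 2 library 3 together, 31 members were higher and 2 lower. Of the 22 higher members, 17 were called in each of the 29 settings at the same threshold, the others being Orc3, Mcm3, Mcm10, Rfc4 and Tyms. Orc3 was lost without wild-type untreated library 1, wild-type day 5 library 1 or P248L day 5 library 2, Mcm10 without wild-type untreated library 1 or P248L day 5 library 2, and Rfc4 without wild-type day 5 library 1. Mcm3 and Tyms were each lost without any of 10 or more single libraries, with adjusted p up to 0.11.

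**Figure D5:**
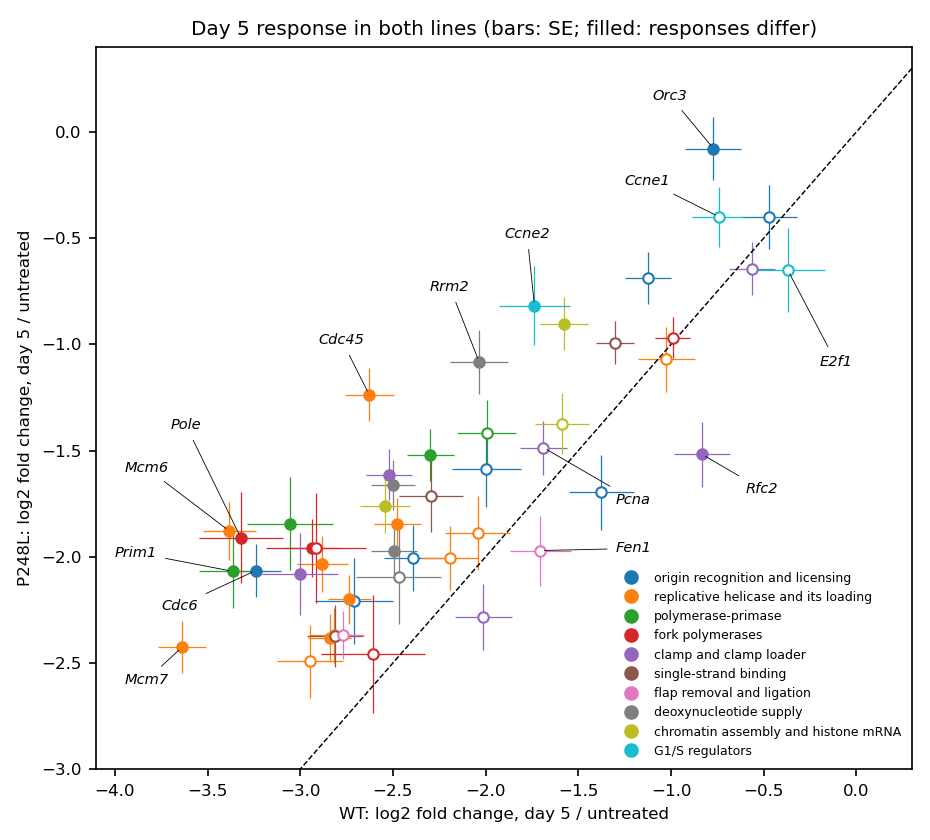
Fitted log2 fold change at day 5 against untreated in the wild-type line (x axis) and the P248L line (y axis) for the 50 members, coloured by role, with SE bars. The dashed line marks equal responses, filled points are the 23 members whose responses differed, and 22 of these lie above the line with Rfc2 below it.

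Set side by side at the same time point, the lines differed in fewer members before IL-3 than after it. In untreated cells 5 members were higher in the P248L line and none lower, against 10.3% and 11.3% of all tested genes (21.7% either way). Chaf1a had the smallest adjusted p, at 115, 116 and 119.9 CPM in wild-type and 222, 180.0 and 177 CPM in P248L libraries (0.72 ± 0.12, adjusted p = 0.00042). The others were Gins1 (0.51), Cdt1 (0.58), Rfc3 (0.43) and Pcna (0.36), for which untreated P248L library 1 was the highest of its group. The count of 5 was 17 without P248L untreated library 3 and 1 without wild-type untreated library 1 or 3. It was 2 without P248L untreated library 1, any P248L day 5 library, wild-type day 2 library 3 or wild-type day 5 library 1 or 2. It was 3 without P248L untreated library 2, P248L day 2 library 2, wild-type day 2 library 1 or 2, or wild-type day 5 library 3. Chaf1a was called in each of these. Without P248L untreated library 1 and day 2 library 3 together, 2 were higher in untreated cells, 27 higher and 1 lower at day 2, and 40 higher and 1 lower at day 5. At day 2, 25 members were higher in the P248L line and none lower (15.5% and 20.3% of all tested genes, 35.8% either way), led by Chaf1a (0.84, adjusted p = 4.2e-05), Mcm7 (0.64, adjusted p = 0.00029) and Mcm3 (0.58, adjusted p = 0.00041). At day 5, 38 were higher and Rfc2 was lower (22.8% and 22.7%, 45.5% either way). The smallest adjusted p values were those of Mcm6 (1.85 ± 0.14, adjusted p = 5.7e-09), Cdc45 (1.6 ± 0.13, adjusted p = 1.7e-08) and Chaf1a (1.51 ± 0.13, adjusted p = 4.7e-08). The 11 members that did not pass at day 5 were Orc2, Orc4, Gins3, Gins4, Pold2, Pold3, Rfc1, Rfc3, Fen1, Chaf1b and E2f1. The members' median difference was 0.13 untreated, 0.35 at day 2 and 0.62 at day 5, against -0.01, 0.00 and 0.02 over all tested genes.

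Other genes of replication, in a list of 44 that holds no member, moved mostly the same way. At day 5, 39 fell and 2 rose in the wild-type line, where 37.4% of all tested genes fell and 35.7% rose. In the P248L line 36 fell and 4 rose, against 36.2% and 34.8%. The medians were -2.15 and -1.53. At day 2, 5 rose and 13 fell in the wild-type line (22.1% and 21.8% of all tested genes). In the P248L line 12 rose and 3 fell at day 2 (18.5% and 21.5%). The day 5 response was higher in P248L for 27 and lower for 2, against 14.7% and 12.2% of all tested genes. The strongest falls by adjusted p were Dctd, which supplies dUMP (-3.67 ± 0.13 and -2.73 ± 0.13), and the exonuclease Exo1 (-3.73 ± 0.14 and -2.53 ± 0.13). Samhd1, which breaks down deoxynucleotides, rose from 155, 149 and 162 to 566, 655 and 672 CPM in the wild-type line (2.02 ± 0.12, adjusted p = 4e-11). In the P248L line it rose from 103, 107 and 125 to 680.3, 600.0 and 666 CPM (2.54 ± 0.12, adjusted p = 3.6e-12). The enzymes that make deoxynucleotides and the one that removes them thus moved in opposite directions. Pold4, the smallest subunit of polymerase delta, also rose (1.15 and 1.91), unlike Pold1, Pold2 and Pold3.

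Regulators of the G1/S step moved both ways. Of 24 E2F, retinoblastoma and G1 kinase genes, 7 rose and 15 fell at day 5 in the wild-type line. In the P248L line 7 rose and 12 fell. Over all tested genes, 35.7% rose and 37.4% fell in the wild-type line, and 34.8% and 36.2% in the P248L line. Cdkn1a, which encodes the kinase inhibitor p21, rose from 31.9, 34.1 and 33.2 to 437, 317 and 349 CPM and from 99.2, 65.2 and 55.3 to 651, 421 and 611 CPM. The inhibitor gene Cdkn1c was near 0 in untreated wild-type libraries (0.199, 0.155 and 0.133 CPM) and at 19.6, 22.8 and 11.2 CPM at day 5. Ccna2, the S phase cyclin, changed by -2.46 and -1.23, and Cdc25a, a phosphatase that activates Cdk2, by -1.88 and -1.26. The activator E2f2 rose in the P248L line from 32.6, 29.7 and 31.6 to 122, 127 and 119 CPM (1.97 ± 0.11, adjusted p = 3.6e-11), a larger response than in the wild-type line (difference 1.64 ± 0.15, adjusted p = 4.7e-07). Cdk4 fell in the P248L line from 750.2, 553 and 434 to 124, 129 and 137 CPM (-2.15). Across the 24 genes the day 5 response was higher in the P248L line for 11 and lower for 2. The differences ran from -3.6 to 1.64, and 14.7% of all tested genes were higher and 12.2% lower. Genes of G2 and mitosis behaved like the members at day 5. In the wild-type line 14 of 14 fell and in the P248L line 13 of 14, against 37.4% and 36.2% of all tested genes. Their medians were -2.37 and -1.08, with Aurkb at -2.93 and -1.4 and Cdc20 at -3.34 and -2.01. Their day 5 response was higher in the P248L line for 12 of 14, against 14.7% of all tested genes.

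Markers of blood cell types moved over the same days. Summed levels of 6 progenitor markers (Kit, Flt3, Cd34, Myb, Meis1, Hlf) were 1978 to 2029 CPM untreated, 654 to 705 at day 2 and 126 to 162 at day 5 in the wild-type line, and 2247 to 2495, 1075 to 1290.1 and 216 to 269 CPM in the P248L line. The 6 neutrophil markers (Ngp, Ltf, Camp, Lcn2, Cd177, Mmp8) summed to 13 to 17.9, 2062 to 3197 and 2433 to 3354 CPM in the wild-type line and to 2.82 to 4.39, 29.9 to 52.0 and 3691 to 4605 CPM in the P248L line. The 6 monocyte and macrophage markers (Cd68, Csf1r, Adgre1, Mpeg1, C1qa, C1qb) summed to 5899 to 6387 CPM at day 5 in the wild-type line and 2497 to 2922 in the P248L line, with C1qa and C1qb at or near 0 in every group. Markers of red cells summed to at most 28.3 CPM and of hepatocytes to at most 14.3 CPM, mostly Afp, with Alb and Ttr at 0. The labelled fetal liver cells thus carried blood progenitor markers, and hepatocyte markers were absent or low. At day 2 the neutrophil markers had risen far more in the wild-type line. The members' day 2 responses differed by the interaction test for 2 of 50, against 9.55% of all tested genes. By the same test the day 5 response was higher in the P248L line for 22 and lower for 1, against 14.7% and 12.2%. With the lines compared directly at day 2, 25 of 50 members were higher in the P248L line and none lower. The shares of all tested genes were 15.5% and 20.3%. At day 5, 38 of 50 members were higher in the P248L line and 1 lower, against 22.8% and 22.7% of all tested genes. In the same comparison 3 of 6 progenitor and 2 of 6 neutrophil markers were higher. Of the 4 monocyte and macrophage markers tested, 2 were lower. The remaining markers of these 3 lists did not pass. The part of these cell types in the members' levels was not tested.

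Members with an E2F word in the promoter had a median log2 fold change of -2.84 at day 5 in the wild-type line (n = 15, from -3.64 to -0.77), against -2.04 for the 27 members with a promoter and no such word (-3.36 to -0.37). In the P248L line the medians were -2.01 and -1.61. The ranges overlapped over most of their length. The printed stretches were chosen to span the range, with Orc1 (-2.39) near the members' median. In the wild-type line Mcm6, with 3 words, kept 9.58% of its untreated level and Orc3, with 1 word, kept 58.6%. Cdc6, also with 1 word, changed there by -3.24 log2, and Prim1, with no such word, by -3.36. The number of words thus did not order the falls.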

How the data were processed

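RNA of 18 libraries was measured (6 groups of 3). Per the labels' protocols it came from total RNA with standard Illumina libraries. The aligner was STAR and the build mm10, per the submitters' processing notes, which as used here give no version of STAR. The authors deposited read counts per gene and library, in 3 columns for reads of both strands and of each strand. The column of the strand holding nearly all reads was used, with 1.17% to 2.54% of stranded reads on the other one, and reads in no single gene stayed out of library sizes. Genes passed edgeR's filterByExpr at a minimum count of 10 (11942 genes). Counts were scaled by TMM and fitted in 1 model of 6 group means over the 18 libraries (edgeR 4.0.16, R 4.3.3), with quasi-likelihood tests for 11 comparisons and Benjamini-Hochberg adjustment over all genes tested. SE is the log2 fold change over the root of F. The code was tested on simulated data.

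The members and the lists of other genes were chosen with earlier results of these data known. Named are the members that lead each role, the 3 of smallest adjusted p per comparison and direction, those called against the majority and those not called, and of the other lists the 2 of smallest adjusted p per direction and line at day 5. A few further members were named after their values were seen. Alternatives were DESeq2 1.42.0, limma-voom 3.58.1, other scalings and filters, both strands, fewer libraries and a replicate block. The reported values come from the fit without a block. Only in an alternative were replicate numbers taken to pair the libraries for P248L day 2 against untreated. There each same-numbered pair correlated above 0.1 over all genes (0.46, 0.175 and 0.348), a hint from the data that no label states. Day 2 library 2 and untreated library 3, of unlike number, correlated at 0.171. Gene positions and exon lengths are from GENCODE M21 and promoters from RefSeq (GRCm38.p6). Protein sequences were not used here.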

Additional observations from a re-analysis of the deposited data

Results flagged for a closer look

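Responses that differed between the lines by the interaction test (edgeR, adjusted p under 0.05) are listed as the P248L minus the wild-type log2 fold change. At day 2 these were Mcm7 (0.55) and Prim2 (0.63). At day 5, in licensing and the helicase, they were Orc3 (0.69), Cdc6 (1.17), Mcm3 (0.46), Mcm4 (0.63), Mcm5 (0.85), Mcm6 (1.5), Mcm7 (1.21), Mcm10 (0.53) and Cdc45 (1.39). Among polymerases and the clamp loader they were Pola1 (1.21), Prim1 (1.29), Prim2 (0.78), Pole (1.41), Pole2 (0.98), Rfc4 (0.92), Rfc5 (0.91) and Rfc2, which was lower in the P248L line (-0.69). Among the others they were Rrm1 (0.84), Rrm2 (0.95), Tyms (0.52), Chaf1a (0.78), Slbp (0.68) and Ccne2 (0.92). Mcm7 and Prim2 are the members that differed at both times. Both lines fell for each of these members at day 5, except that Orc3 did not pass in the P248L line, so the difference is in how far they fell. Cyclin E2 differed (0.92) and cyclin E1 did not pass (0.34 ± 0.2, adjusted p = 0.23). With 3 libraries a group, no test for a single outlying library was run.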

How the results depend on the processing

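Of 331 recomputed counts of members called, 290 stayed within 1.5 times the reported one, and no called member changed direction. The day 5 counts against untreated stayed between 47 and 50 in both lines. P248L day 2 against untreated gave 15 called members, 5 with only the libraries compared and 24 with the replicate block in those 2 groups alone. P248L against wild-type untreated (5) gave 8 with DESeq2, 1 with no scaling, 3 with no low-count filter, 1 with only the libraries compared, 2 without P248L untreated library 1 and day 2 library 3, and 1 at adjusted p under 0.01. The difference of day 2 responses (2) gave 7, 0 (only the libraries compared), 4 (without those 2 libraries) and 0 (adjusted p under 0.01), and the smaller threshold gave 14 at day 2 between lines (25) and 15 for the difference of day 5 responses (23). The cause was not tested, beyond fewer libraries or a stricter threshold. Leaving out each library in turn gave 1 to 17 for untreated cells between lines and 0 to 6 for the difference of day 2 responses.

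The replicate block over all 18 libraries gave 26 called members for wild-type day 2, 16 for P248L day 2, 49 for day 5 in either line, 4, 25 and 38 between lines (untreated, day 2, day 5) and 3 and 26 for the differences of responses, all within 1.5 times. Outside P248L day 2 against untreated, same-numbered libraries did not all deviate together.

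With 3 libraries a group and more spread in the P248L line, small differences there were the least certain. Depth was not limiting, with at least 72 reads for each member in every library.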
